A study of Oryza sativa Japonica Group with 4 samples.

Results

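The Aux/IAA and ARF families of rice, the repressors and the transcription factors of the nuclear auxin response, were followed in young panicles of wild type and of a line carrying an RNA interference transgene against OsbZIP47, a bZIP transcription factor. Members were taken by gene identifier, namely OsIAA1 to OsIAA31 and OsARF1 to OsARF25, so that the families held 31 and 25 genes, or 56 of the 37862 genes in the count table. The panicles were 0.1-0.5 cm long and came from cultivar TP309 in both groups. The WT group held 2 libraries (WT 1 and WT 2). The OsbZIP47KD group held 2 libraries (KD 1 and KD 2) of line #14, a single transgenic line (genotype osbzip47 dsRNAi#14) in which the maize ubiquitin promoter drives a hairpin made from a piece of the OsbZIP47 3′UTR. The study gives the libraries of a group as biological replicates. All values are from whole panicles, so fewer cells of a type and less RNA per cell cannot be told apart.

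Aux/IAA proteins are short-lived repressors that bind ARFs on the DNA of auxin-responsive genes and bring in co-repressors of the TOPLESS family. Auxin is held between an F-box receptor of the TIR1/AFB family and the Aux/IAA protein, which is then marked for degradation, so that the ARF is freed. ARFs with a glutamine-rich middle region act mostly as activators, and most other ARFs act mostly as repressors. Many Aux/IAA genes are themselves induced by auxin, and in grass inflorescences auxin maxima mark the places where branch and spikelet primordia form.

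The libraries held 3839165 to 5611969 reads assigned to genes, and 25289 genes had enough reads to be tested. OsbZIP47 (Os06g0265400) was at 87.9 and 51.3 CPM (read counts scaled to the TMM-adjusted library size) in WT and at 259 and 217 CPM in the libraries labelled OsbZIP47KD, and was called higher in them (log2 fold change 1.77, adjusted p = 0.0140 by edgeR's quasi-likelihood test). Because the hairpin carries OsbZIP47 sequence, this gene does not check the labels, and every direction given here rests on them. The panicle markers OSH1, RFL, OsMADS1, OsMADS14, OsMADS15, OsMADS34 and LAX1 were all read, with sums of 643 to 736 CPM in WT 1, WT 2 and KD 1 and 376 CPM in KD 2. The markers did not go together in KD 2: OsMADS14, OsMADS15 and OsMADS34 were at their lowest there, at 56.2, 83.4 and 13.5 CPM, whereas OSH1, RFL and LAX1 lay within the WT values and OsMADS1 was at its highest. The 3 leaf markers summed to 138 and 196 CPM in WT and to 56.6 and 75.3 CPM in the libraries labelled OsbZIP47KD, and CAB1R among them was called lower (log2 fold change -2.40). CAB2R lay on the same side, while RBCS went the other way, at 2.80 and 6.88 CPM in WT against 8.79 and 8.74 CPM. The 3 anther markers summed to 3.92 to 5.43 CPM in the first 3 of these libraries and to 18.4 CPM in KD 2, where TDR had 37 reads against at most 4 elsewhere, and EAT1 was at 0 in those first 3 libraries. The part of leaf, anther or spikelet tissue in the values below was not tested.

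Of the 25 ARF genes, 23 were tested, and 19 of them lay below 0 on the log2 scale in the libraries labelled OsbZIP47KD against WT, with 4 above 0. The ARF median log2 fold change was -0.23, a level of 0.854 of WT, with quartiles of -0.32 and -0.10. Over all 25289 tested genes the median was 0.02, and 48.7% lay below 0. Of the 31 Aux/IAA genes, 25 were tested, and 16 lay above 0 and 9 below, with a median of 0.16 and quartiles of -0.17 and 0.56. The ARF values were therefore displaced downwards and closely packed, while the Aux/IAA values were spread to both sides. The values of all tested genes were spread about as widely as the Aux/IAA values, with quartiles of -0.30 and 0.40. No member of either family passed an adjusted p of 0.05 by edgeR's quasi-likelihood test with Benjamini-Hochberg adjustment. The same threshold was passed by 0.649% of all tested genes, with 0.127% higher and 0.522% lower, so that a count of 0 among 48 tested members lay near the background. At an unadjusted p under 0.05 the test gave 2 Aux/IAA genes, both higher, and 2 ARF genes, both lower, against 14.1% of all tested genes, 6.85% higher and 7.27% lower. Most members lay near 0, as did most genes. In all, 17 Aux/IAA genes (68.0%) and 20 ARF genes (87.0%) lay within 0.5 of 0 on the log2 scale, against 64.9% of all tested genes, and 2 Aux/IAA genes and no ARF gene were at 1 or beyond, against 12.9%. The groups did not overlap in 10 genes of each family, against 45.9% of all tested genes. DESeq2 and edgeR's exact test called no Aux/IAA gene and called 1 ARF gene, OsARF11, each.

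**Figure D1:**
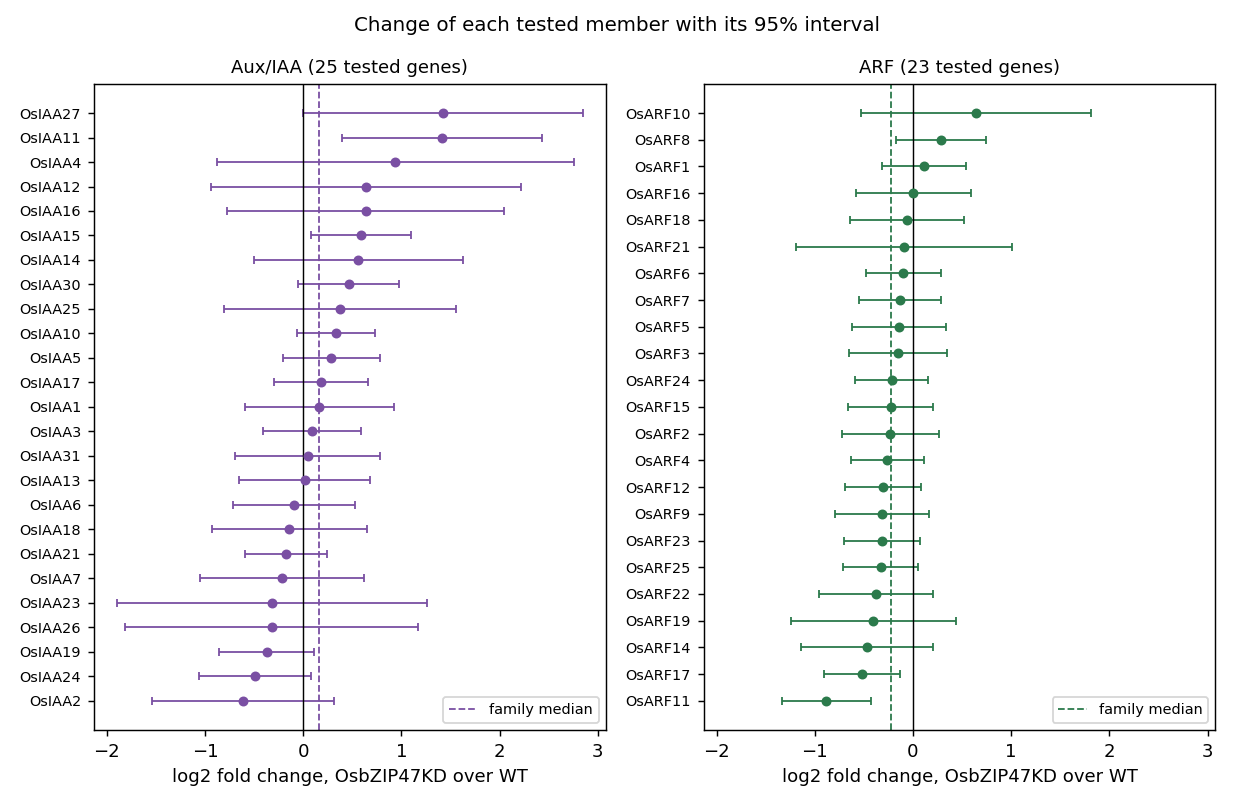
Log2 fold change (libraries labelled OsbZIP47KD minus WT) of each tested Aux/IAA and ARF gene with its 95% confidence interval from edgeR's quasi-likelihood fit, n = 2 libraries per group. Of the ARF points 19 of 23 lie left of 0, of the Aux/IAA points 9 of 25, and only the intervals of OsARF11, OsARF17, OsIAA11 and OsIAA15 leave 0 out.

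The activator-type ARFs lay lowest among the ARF clades. Of these 9 genes 8 were below 0, with a median of -0.31, and in 5 of them both libraries labelled OsbZIP47KD lay below both WT libraries. Over all tested genes 22.8% were placed in this way, and 41.2% of those of at least 50 CPM, where all 5 lie. OsARF11 (Os04g0664400), the rice counterpart of Arabidopsis MONOPTEROS, which in Arabidopsis is needed to start flower primordia, stood at 217 and 206 CPM in WT and at 136 and 92.8 CPM in the libraries labelled OsbZIP47KD. The groups did not overlap, and the lower KD library was KD 2, in which 3 of the 7 panicle markers, OsMADS14, OsMADS15 and OsMADS34, were also low. Its log2 fold change was -0.88 (SE 0.21, 95% interval -1.34 to -0.43), with an adjusted p of 0.0862 by edgeR's quasi-likelihood test. The adjusted p ran from 0.00373 to 0.309 over the alternative settings, and with KD 2 left out the log2 fold change was -0.63. OsARF11 was thus the member nearest to a call and was past it in some settings and not in others.

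OsARF17 (Os06g0677800), OsARF12 (Os04g0671900), OsARF25 (Os12g0613700) and OsARF6 (Os02g0164900) are activator-type genes whose transcripts are targets of the microRNA miR167. OsARF17 was at 397 and 378 CPM in WT and at 242 and 299 CPM in the libraries labelled OsbZIP47KD, a log2 fold change of -0.52 (SE 0.18, adjusted p = 0.221 by edgeR's quasi-likelihood test). Its groups did not overlap, and its adjusted p ran from 0.0871 to 0.607 over the alternatives. OsARF12, which acts in root elongation in rice, was at 481 and 447 CPM against 417 and 334 CPM, and OsARF25 at 357 and 298 CPM against 268 and 254 CPM. Both were placed like OsARF17, with every KD value under every WT value, at -0.31 and -0.33 on the log2 scale with intervals that held 0. OsARF6 stood apart from these 3, at 205 and 183 CPM against 173 and 188 CPM, with overlapping groups and a log2 fold change of -0.10 (95% interval -0.48 to 0.28).

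OsARF5 was at 53.7 and 52.7 CPM in WT and 48.8 and 47.5 CPM in the libraries labelled OsbZIP47KD. Both groups were tight and did not overlap, yet its log2 fold change was only -0.14 (95% interval -0.62 to 0.33). OsARF19 (Os06g0702600), an activator that acts on leaf angle, was at 98.3 and 64.1 CPM against 82.7 and 40.4 CPM. Its replicates differed by more than the groups did, and its interval ran from -1.24 to 0.43. OsARF16, which in rice acts on the root gene CRL1, was at 36.0 and 30.5 CPM against 37.7 and 29.0 CPM, the value nearest to 0 of all members. OsARF21 was at 5.41 and 12.6 CPM against 8.79 and 8.03 CPM and also overlapped. Taken as a share of all ARF reads, the 9 activator-type genes made up 33.2% and 33.3% in WT and 30.8% and 31.5% in the libraries labelled OsbZIP47KD.

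The ETTIN-type ARFs are repressor-type genes whose transcripts are cut by small RNAs of the tasiR-ARF kind, and in Arabidopsis ETTIN patterns the gynoecium. OsARF2 (Os01g0670800) and OsARF15 (Os05g0563400) are listed as OsETTIN2 and OsETTIN1 among the synonyms of RefSeq, and proteins of these names were assayed against OsbZIP47 in the study. OsARF15 was at 195 and 197 CPM in WT and at 195 and 139 CPM in the libraries labelled OsbZIP47KD, and OsARF2 at 163 and 142 CPM against 159 and 101 CPM. In both genes KD 1 lay at the WT values and KD 2 below them. OsARF3 was at 123 and 93.6 CPM against 116 and 79.8 CPM, and OsARF14 (Os05g0515400) at 51.9 and 41.3 CPM against 43.9 and 23.6 CPM. All 4 overlapped between groups, all 4 were lowest in KD 2, and their log2 fold changes were -0.23 for OsARF2 and OsARF15, -0.15 for OsARF3 and -0.47 for OsARF14. With KD 2 left out, OsARF2 and OsARF3 moved to 0.06 and 0.09.

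The genes OsARF8, OsARF10, OsARF18 and OsARF22 carry target sites of miR160. They were split around 0, with 2 above and 2 below and a median of 0.11. OsARF8 was at 62.3 and 54.1 CPM in WT and at 67.7 and 74.1 CPM in the libraries labelled OsbZIP47KD, the only one of the 23 tested ARF genes in which both KD values exceeded both WT values, as in 23.0% of all tested genes. Its log2 fold change was 0.29 (95% interval -0.17 to 0.74). OsARF22 (Os10g0479900) went the other way, at 30.8 and 36.4 CPM against 26.6 and 25.3 CPM, with a log2 fold change of -0.37 (95% interval -0.95 to 0.21). OsARF18 was at 34.7 and 28.3 CPM against 29.2 and 31.2 CPM. OsARF10 (Os04g0519700), with few reads, was at 4.10 and 6.88 CPM against 6.46 and 10.6 CPM, the highest ARF fold change at 0.64 but with an SE of 0.54 and overlapping groups.

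The other repressor-type ARFs included the genes with the most reads. OsARF4 (Os01g0927600), which acts on grain size, was at 927 and 804 CPM in WT and at 721 and 724 CPM in the libraries labelled OsbZIP47KD. OsARF23 (Os11g0523800), which with OsARF24 (Os12g0479400) acts on a formin gene in rice, was at 851 and 761 CPM against 708 and 585 CPM. OsARF24 was at 353 and 390 CPM against 307 and 333 CPM. In each of these 3 genes the groups did not overlap, while the log2 fold changes were small, at -0.26, -0.32 and -0.22, each with an interval that held 0. OsARF9 (Os04g0442000) was at 635 and 449 CPM against 506 and 366 CPM and overlapped, its replicates differing by more than its groups. OsARF7 was at 198 and 245 CPM against 181 and 223 CPM, and OsARF1 at 85.1 and 101 CPM against 107 and 95.2 CPM, also with overlap. OsARF13 and OsARF20 were under the limit for testing. OsARF13 had 6 and 1 reads in WT and 3 and 0 in the libraries labelled OsbZIP47KD, a ratio of 0.552 (exact binomial 95% interval 0.0921 to 2.42). OsARF20 had 0 and 2 against 2 and 7 reads, a ratio of 5.80 (1.20 to 55.2). Such intervals cover counting error only, without the spread between replicates.

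**Figure D2:**
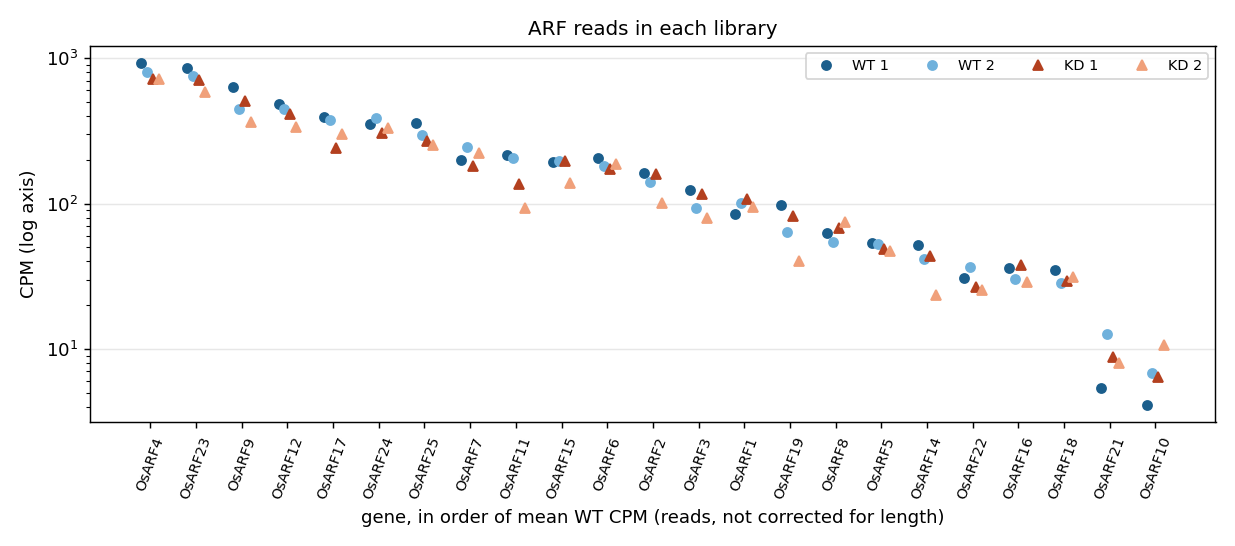
CPM of the 23 tested ARF genes on a log axis, 1 point per library (2 WT, 2 labelled OsbZIP47KD), ordered by mean WT reads, which are not corrected for transcript length. Both KD points lie below both WT points in 9 genes, OsARF11 and OsARF17 with the widest gaps, and above them in OsARF8.

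The background against which the families were read differed with abundance. Of the 23 tested ARF genes, 17 had a mean of at least 50 CPM, against 9 of the 25 Aux/IAA genes. Among all 5238 tested genes at that level the median log2 fold change was -0.15, and 67.9% lay below 0. The 17 ARF genes there had a median of -0.23 with 15 below 0, and 8 had both KD libraries below both WT libraries, against 41.2% of the genes at that level. The 9 Aux/IAA genes there had a median of 0.18 with 3 below 0. Among the 640 tested genes of at least 200 CPM, the median was -0.09 and 59.2% lay below 0, and the 8 ARF genes among them all lay below 0, with a median of -0.31. Under 50 CPM the median of all 20051 genes was 0.08 and 43.7% lay below 0. The 6 ARF genes there had a median of -0.08 with 4 below 0. The 16 Aux/IAA genes there had a median of 0.10, close to that of all genes at that level. After the trend with abundance was removed by a loess curve, a step added after the data were seen, the ARF median was -0.05 with 15 below 0 and 8 above, and the Aux/IAA median was 0.14. Against genes of at least 50 CPM, and after the trend was removed, the ARF displacement was thus smaller than against all genes. Among genes of at least 200 CPM it stayed wide, at -0.31 against -0.09.

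**Figure D3:**
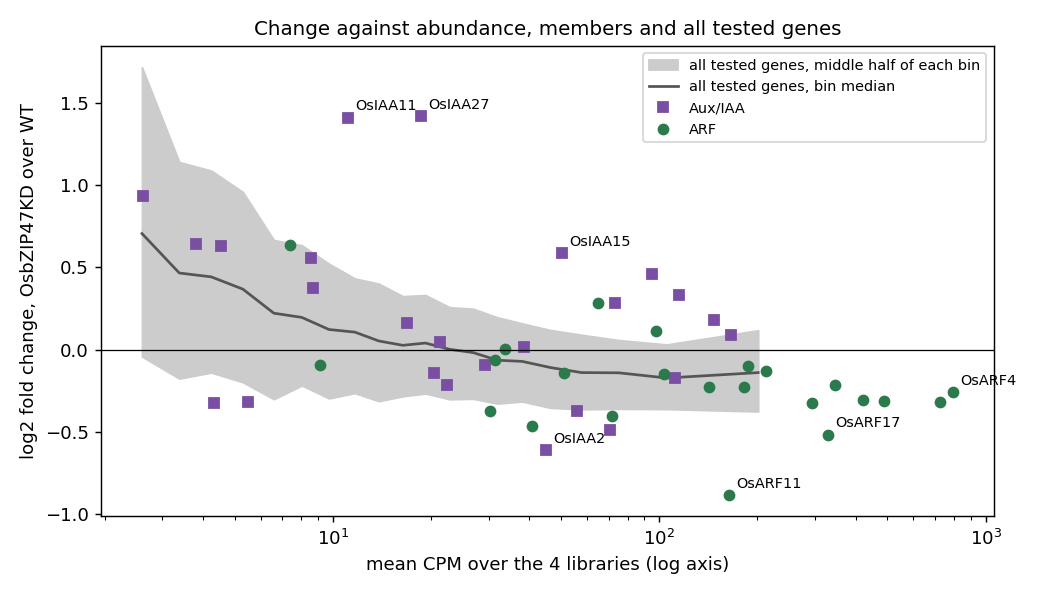
Log2 fold change (libraries labelled OsbZIP47KD minus WT) against mean CPM on a log axis, for the tested ARF and Aux/IAA genes, with the median of all tested genes in bins of abundance as a line. The line lies below 0 from the bin around 26.9 CPM upwards. At 50 CPM or more lie 17 of the 23 ARF points and 9 of the 25 Aux/IAA points.

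Among the Aux/IAA genes, the 6 with the most reads in WT were OsIAA3, OsIAA17, OsIAA21, OsIAA10, OsIAA24 and OsIAA30, which together made up 57.8% and 65.0% of the Aux/IAA reads in WT and 60.0% and 62.9% in the libraries labelled OsbZIP47KD. OsIAA3 (Os01g0231000) was at 127 and 193 CPM in WT and at 191 and 149 CPM in the libraries labelled OsbZIP47KD, and OsIAA17 (Os05g0230700) at 107 and 169 CPM against 151 and 161 CPM. In both the WT libraries lay farther apart than the group means, and the log2 fold changes of 0.09 and 0.18 had intervals that held 0. OsIAA21 (Os06g0335500) was at 117 and 119 CPM against 94.1 and 115 CPM, a log2 fold change of -0.17 with no overlap. OsIAA10 (Os02g0817600), whose protein is bound in rice by a protein of rice dwarf virus, was at 98.9 and 103 CPM against 134 and 120 CPM, a log2 fold change of 0.33 (95% interval -0.07 to 0.73), also with no overlap. OsIAA24 (Os07g0182400) was at 61.4 and 102 CPM against 64.3 and 51.9 CPM and overlapped. OsIAA30 (Os12g0601300) was at 60.8 and 98.0 CPM against 105 and 113 CPM, with a log2 fold change of 0.46 (95% interval -0.05 to 0.98). These 6 abundant genes therefore went to both sides of 0, and no interval left 0 out.

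The Aux/IAA genes with the lowest p-values were both higher in the libraries labelled OsbZIP47KD. OsIAA11 (Os03g0633500), in which a stabilising mutation blocks lateral root formation in rice, was at 7.65 and 4.13 CPM in WT and at 11.6 and 19.8 CPM in the libraries labelled OsbZIP47KD, from 41, 21, 45 and 84 reads. Its log2 fold change was 1.41 (SE 0.47, 95% interval 0.39 to 2.43, adjusted p = 0.202 by edgeR's quasi-likelihood test). Among the tested members it was the only one past the study's own criterion. That criterion was an unadjusted p of at most 0.05 together with an absolute log2 fold change of 1 or more. It was passed by 7.12% of tested genes, 4.62% higher and 2.50% lower. Members under the limit for testing, OsIAA20 among them, were not put to it. With no filter, or a looser filter of 1 CPM in 2 libraries, 3 Aux/IAA genes passed it. OsIAA15 (Os05g0178600) was at 40.5 and 39.5 CPM against 68.2 and 52.2 CPM, a log2 fold change of 0.59 (SE 0.23, adjusted p = 0.284 by edgeR's quasi-likelihood test). Neither gene overlapped between groups, and over the alternatives the adjusted p of OsIAA11 ran from 0.117 to 0.571 and that of OsIAA15 from 0.231 to 0.593.

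OsIAA27 (Os11g0221000) had the largest fold change of all tested members and an uneven WT group. It was at 4.85 and 15.1 CPM in WT and at 15.8 and 37.5 CPM in the libraries labelled OsbZIP47KD, so that KD 1 lay just above WT 2. Its log2 fold change was 1.42 (SE 0.60, adjusted p = 0.355 by edgeR's quasi-likelihood test), with adjusted p from 0.00766 to 0.751 over the alternatives. Without WT 2 the log2 fold change was 2.46 and the gene was called, and without KD 2 it was 0.66. Of the Aux/IAA genes with neighbouring identifiers, OsIAA28 had 4 and 0 reads against 2 and 0, and OsIAA29 had 2 and 0 against 0 and 0.

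A further 3 genes with few reads were placed with both KD values above both WT values. OsIAA4 (Os01g0286900) was at 1.68 and 1.38 CPM in WT against 2.58 and 3.31 CPM, a log2 fold change of 0.94 with an SE of 0.84. OsIAA12 (Os03g0633800), whose identifier is the Aux/IAA neighbour of OsIAA11, was at 3.36 and 1.97 CPM against 3.62 and 4.72 CPM, and OsIAA16 at 3.36 and 3.15 CPM against 5.17 and 4.96 CPM. OsIAA12 and OsIAA16 had log2 fold changes of 0.64 and 0.63. These are small numbers of reads, and the intervals of all 3 genes reached far to both sides of 0. At such levels the median log2 fold change of all tested genes was itself above 0. It was 0.71, 0.47 and 0.44 in bins of genes around 2.60, 3.38 and 4.24 CPM. Among the 25 tested Aux/IAA genes, 8 had both KD libraries above both WT libraries and 2, OsIAA19 and OsIAA21, had both below, against 23.0% and 22.8% of all tested genes, while 15 overlapped. OsIAA19 was at 60.3 and 64.5 CPM against 53.0 and 43.4 CPM, with a log2 fold change of -0.37 (95% interval -0.86 to 0.11).

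**Figure D4:**
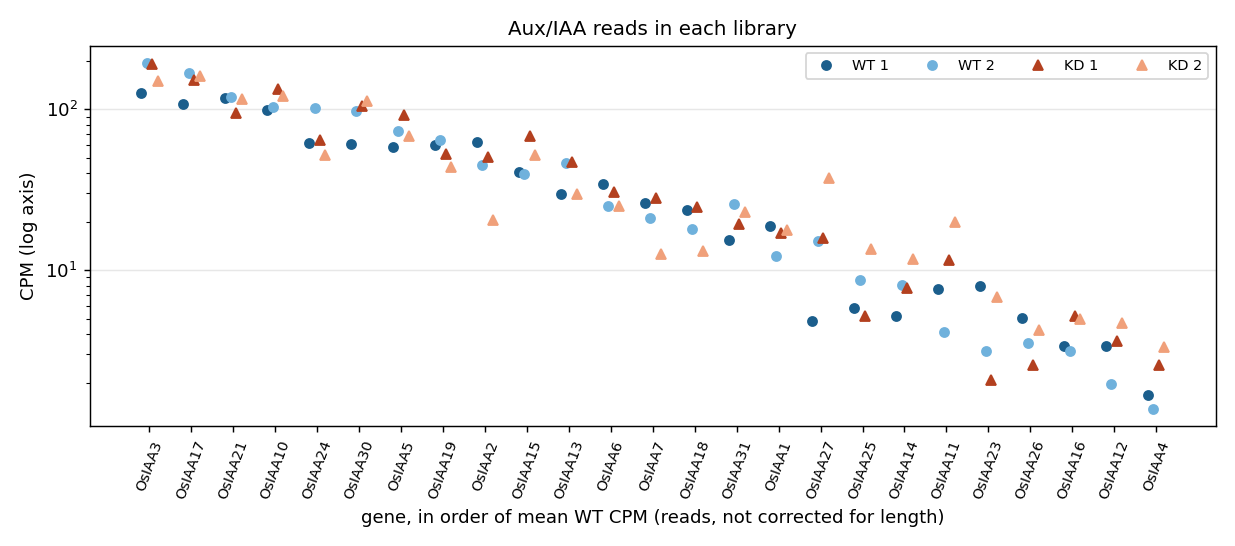
CPM of the 25 tested Aux/IAA genes on a log axis, 1 point per library (2 WT, 2 labelled OsbZIP47KD), ordered by mean WT reads, which are not corrected for transcript length. Groups overlap in 15 genes, and OsIAA11, OsIAA15 and OsIAA27 are among the 8 with both KD points above both WT points.

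OsIAA2 (Os01g0190300) had the lowest Aux/IAA fold change and was set by KD 2. It was at 62.7 and 45.0 CPM in WT and at 50.1 and 20.5 CPM in the libraries labelled OsbZIP47KD, with a log2 fold change of -0.61 (SE 0.40). OsIAA7 and OsIAA18 had the same shape, at 26.1 and 21.0 CPM against 28.2 and 12.5 CPM and at 23.7 and 18.1 CPM against 24.8 and 13.2 CPM. In these 3 genes KD 1 lay within or just above the WT values and KD 2 below them. OsIAA14 (Os03g0797800) was the most displaced of the overlapping genes on the higher side, at 5.22 and 8.06 CPM against 7.75 and 11.8 CPM and a log2 fold change of 0.56. OsIAA13, in which a stabilising mutation also reduces lateral roots, was at 29.9 and 46.0 CPM against 47.0 and 29.8 CPM, so that the groups covered the same range. OsIAA23, which acts in the root quiescent centre, was at 8.02 and 3.15 CPM against 2.07 and 6.85 CPM, with no order between groups. The remaining overlapping genes, OsIAA1, OsIAA5, OsIAA6, OsIAA25, OsIAA26 and OsIAA31, had log2 fold changes between -0.32 and 0.37.

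The 6 Aux/IAA genes under the limit for testing had at most 16 reads in any library. OsIAA20, a gene of the rice stress response, had 0 and 2 reads in WT and 6 and 16 in the libraries labelled OsbZIP47KD, a ratio of 14.2 (exact binomial 95% interval 3.48 to 124, counting error only). OsIAA9 had 6 and 0 reads against 8 and 6, a ratio of 3.01 (1.09 to 9.55). In OsIAA9, WT 1 had as many reads as KD 2, and the difference came from WT 2. OsIAA8 had 4 and 10 against 6 and 8 reads, and its ratio of 1.29 had an interval of 0.569 to 2.92. OsIAA22 had 0 and 5 reads in WT and none in the libraries labelled OsbZIP47KD, and the exact binomial 95% interval of the ratio, 0 to 1.41, held no change. For OsIAA29 both groups were at or under a floor of 3 reads over the group, and no ratio is given.

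Summed over the family, ARF reads made up 5565 and 5021 CPM in WT and 4590 and 4106 CPM in the libraries labelled OsbZIP47KD, or 5293 ± 385 and 4348 ± 342 CPM (SD, n = 2). The groups did not overlap. The sums over all genes were 1047110 and 1003330 CPM in WT and 992166 and 959361 CPM in KD 1 and KD 2. They follow from the TMM factors alone, measure no expression and give no background for the ARF sums. Among all tested genes of at least 200 CPM, 39.1% had both KD libraries below both WT libraries. Aux/IAA reads summed to 990 and 1208 CPM in WT and to 1233 and 1131 CPM in the libraries labelled OsbZIP47KD, and here the groups did overlap. There were 17.8 and 24.1 Aux/IAA reads for every 100 ARF reads in WT and 26.9 and 27.5 in the libraries labelled OsbZIP47KD. With 2 libraries against 2, the smallest p of a two-sided exact permutation test is 0.333, so none was made. The difference in the ARF sum was spread over the family: OsARF23 gave 16.9% of it, OsARF4 15.1%, OsARF17 12.4%, OsARF9 11.2% and OsARF11 10.3%, whereas these genes held 15.2%, 16.3%, 7.32%, 10.2% and 4.0% of the ARF reads in WT. OsARF11 and OsARF17 thus gave more of the difference than their share of the reads, and OsARF4, OsARF9 and OsARF23 about their share.

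**Figure D5:**
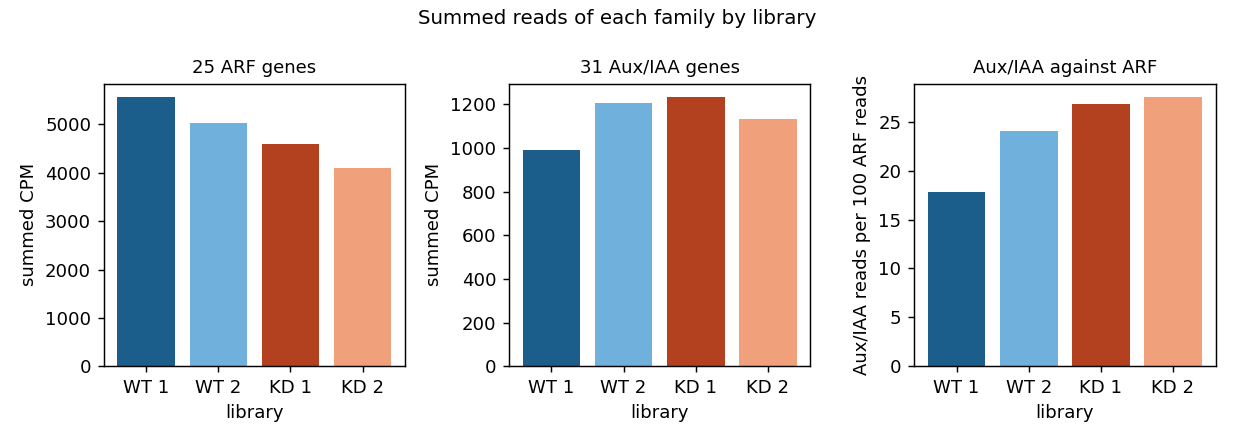
Summed CPM of the ARF genes, summed CPM of the Aux/IAA genes and Aux/IAA reads per 100 ARF reads, 1 bar per library, n = 2 libraries per group. The ARF sums are 5565 and 5021 CPM in WT and 4590 and 4106 CPM in the libraries labelled OsbZIP47KD, and the Aux/IAA sums overlap.

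The precision of the families differed with their depth. The median SE of the log2 fold change was 0.209 for ARF genes and 0.349 for Aux/IAA genes, and the replicates of a gene differed by more than 1.5-fold in 3 (WT) and 4 (KD) ARF genes but in 12 and 10 Aux/IAA genes. The 95% interval lay within a 2-fold change in either direction for 18 of 23 ARF genes and for 12 of 25 Aux/IAA genes. For those 30 members a 2-fold or larger difference between these groups would lie outside the interval, whereas for the others it would not. KD 2 lay below KD 1 in 15 of the 23 ARF genes, and WT 2 below WT 1 in 16.

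The other genes of the pathway were read against the same test. None of the 12 tested receptor, co-repressor and enzyme genes was called by edgeR's quasi-likelihood test, DESeq2 or the exact test. The quasi-likelihood test called 0.649% of all tested genes, so that a count of 0 lay near the background. At an unadjusted p under 0.05 each of the 3 tests gave 1 gene, a co-repressor. In the quasi-likelihood test it was ASP1, against 14.1% of all tested genes. Of the 5 receptor genes of the TIR1/AFB family, 2 lay above 0 and 3 below, with a median of -0.01, OsAFB5 being lowest at 53.0 and 47.0 CPM in WT against 37.5 and 34.5 CPM. The 3 TOPLESS-type co-repressor genes all lay below 0 with both KD libraries below both WT libraries, as did 22.8% of all tested genes and 41.2% of those of at least 50 CPM, where all 3 lie. ASP1, which acts in rice panicle development, was at 531 and 441 CPM against 343 and 354 CPM, a log2 fold change of -0.48 (SE 0.17, adjusted p = 0.240 by edgeR's quasi-likelihood test), and the smallest adjusted p of these 3 genes ran from 0.117 to 0.787 over the alternatives. OsTPR2 and OsTPR3 were at -0.32 and -0.25. Of the 5 genes for auxin-inactivating enzymes, the GH3 enzymes that join auxin to amino acids and the oxidase DAO, 4 were tested and lay 2 above and 2 below 0, with a median of 0.01. CRL1, a root gene downstream of ARFs, had 2, 4, 4 and 9 reads in WT 1, WT 2, KD 1 and KD 2 and was not tested.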

How the data were processed

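RNA-Seq was made from ribosomal RNA-depleted libraries of WT and OsbZIP47KD panicles (n = 2 each). The authors aligned paired reads with STAR v2.5.3a to the RAP-DB rice genome and deposited raw counts per gene. The counting program, strand setting and annotation version are not given in the sources used here, so reads of overlapping or antisense genes cannot be told apart. A second deposited table of counts scaled by the authors was not used.

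Counts were filtered by filterByExpr (minimum count 10, minimum total 15), scaled by TMM and tested by the robust quasi-likelihood method of edgeR (v4.0.16, R v4.3.3). Benjamini-Hochberg adjustment ran over all 25289 tested genes, and adjusted p under 0.05 made a call. Genes under the filter were given as counts, with exact binomial 95% intervals for pooled ratios, and no ratio where both groups had at most 3 counts. The members and lists were chosen with earlier results of these data known. Values per library were printed for the 6 members of each family with the most WT reads, all with unadjusted p of at most 0.05, and the largest fold changes with (up to 2) and without (up to 4) overlap, and other members were added after their values were seen. The ranking was meant to be per kb, but transcript lengths were not at hand, so CPM was used, which does not order genes by transcript number. RefSeq names (assembly ASM3414082v1) matched 51 of 56 members. Alternatives were RLE or library-total scaling, no filter, a 1 CPM filter in 2 libraries, the exact test of edgeR, DESeq2 (v1.42.0), the replicate number as a block and each library left out. In simulated data with these library sizes, the fit called 6% of 2-fold and 73% of 4-fold changes, 100 genes each. It also called 1 unchanged gene among 25436 tested. Every simulated gene had the same dispersion, and changed genes were drawn from all genes past the filter, so these rates are not those of the members.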

Additional observations from a re-analysis of the deposited data

How the results depend on the processing

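The Aux/IAA median log2 fold change was 0.16 and stayed above 0 in all settings run. It was 0.24 with library totals, under which the median of all genes was 0.09, 0.10 with no filter, close to the all-gene median of 0.08 there, and 0.21 with the 1 CPM filter, and 0.14 to 0.37 with 1 library left out. The ARF median was -0.23 and stayed below 0. It was -0.047 after the trend with abundance was removed, a step chosen after seeing the data, and -0.36 (without KD 1) to -0.11 (without KD 2) with 1 library left out. The count of called Aux/IAA genes was 0, and 0 to 1 with 1 library left out (OsIAA27 without WT 2). The count of called ARF genes was 0, but 1 with DESeq2, with the exact test and without a filter, and 0 to 1 with 1 library left out, the gene being OsARF11 each time. The replicate numbers share only a number, and the deviations of same-numbered libraries correlated with r = 0.0383 across all tested genes and r = 0.180 across the 48 tested members, which are not independent replicates. With the replicate number as a block, 1 Aux/IAA gene (OsIAA27, log2 fold change 1.48) and 1 ARF gene (OsARF11, -0.91) were called, and 2 Aux/IAA genes passed the study's criterion against 1 without the block. That count was also 2 with RLE scaling, library totals, the exact test and DESeq2, and 3 with the 1 CPM filter and with no filter, and 0 to 3 with 1 library left out. For ARF genes it was 0, and 0 to 2 with 1 library left out (2 lower without KD 1).

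Members near 0 turned direction in some settings, none of them called. OsIAA13 was at -0.040, OsIAA31 at -0.021 and OsARF16 at -0.056 with no filter, OsARF16 at -0.015 with the 1 CPM filter and at -0.00046 with the block, and OsARF18 at 0.012 with library totals. With 1 library left out, the log2 fold change ran from -0.11 to 0.53 for OsIAA1, -0.17 to 0.43 for OsIAA3, -0.30 to 0.18 for OsIAA6, -0.91 to 0.26 for OsIAA7, -0.35 to 0.37 for OsIAA13, -0.093 to 0.55 for OsIAA17, -0.66 to 0.25 for OsIAA18, -1.43 to 0.52 for OsIAA23, -0.48 to 0.90 for OsIAA25 and -0.27 to 0.47 for OsIAA31. In the ARF family it ran from -0.59 to 0.062 for OsARF2, -0.44 to 0.095 for OsARF3, -0.17 to 0.0035 for OsARF6, -0.29 to 0.034 for OsARF7, -0.20 to 0.18 for OsARF16, -0.19 to 0.11 for OsARF18, -1.01 to 0.025 for OsARF19 and -0.56 to 0.64 for OsARF21. With 1 library left in a group, its spread was taken from the other group. The cause of these changes was not tested. With 3839165 to 5611969 reads a library, depth limited the genes with few reads most.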
